A study of Saccharomyces cerevisiae with 2 samples.

Results

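Of the 6002 nuclear protein-coding genes of budding yeast, 332 were less methylated just upstream of the start codon than downstream of it with either of the methyltransferases used here. Their promoters are called closed here, and they were selected on the measured values. For each gene the mean methylation level of the cytosines from −250 to −100 bp of the start codon (the upstream region) was compared with that from 100 to 500 bp after it (the downstream region). A gene was closed where the upstream mean was the lower of these in each of the 2 libraries. At least 3 listed cytosines were needed in each region and library, which 5524 genes had, so the closed genes were 6.01% of the genes measured. The other 478 genes had too few listed cytosines, most often in the upstream region of the GCMT library (394 genes).

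The data are a NOMe-Seq experiment on *Saccharomyces cerevisiae* strain S288C, the reference laboratory strain, grown in the rich medium YPD at 30°C. The cell wall was digested, and the cells were fixed with formaldehyde, permeabilized with detergent and incubated with a methyltransferase at 37°C. The CCMT library is labelled as made with M.CviQIX. The paper used a form of this enzyme that lacks part of its N terminus and acts on the first C of CC. For its yeast CCMT library the paper lists another sample than the one analysed here. For the GCMT library the enzyme was M.CviPI, whose target is the C of GC. Methylation was read by bisulfite sequencing as the percentage of reads methylated at each cytosine. There was 1 library per enzyme, so no value has a replicate error and no p-value is given. The 95% exact binomial intervals below cover the counting of genes only. The CCMT library had a median of 31 reads per listed cytosine and the GCMT library 13, which makes single GCMT levels the less precise.

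In a typical active yeast gene, a stretch of DNA without nucleosomes lies just before the transcription start, and ordered nucleosomes follow over the gene. Sequence-specific factors such as Reb1 and Abf1, runs of A or T, and remodelling enzymes keep that stretch open. The added methyltransferases reach cytosines in open DNA more readily than those wrapped in a nucleosome, and yeast has no cytosine methylation of its own. The start codon is used here as the reference point, so an open stretch that lies far from the start codon falls outside the upstream region.

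The following stretches show what was measured at 3 closed genes. They are R64 reference sequences, written 5′ to 3′ on the strand of the gene, with each cytosine listed in either library, or the G paired with it, in capitals. *RPS29B* encodes a protein of the small ribosomal subunit. Its closed region (chrIV:340898-341048, minus strand) had 15 target positions, and its most open upstream window by GCMT lay from −700 to −601 bp (chrIV:341399-341498, minus strand). That window touched the upstream region of another gene, *TSR1*. *PUT4*, the proline permease gene, is on the minus strand, with its closed region at chrXV:988882-989032 and its most open upstream window at chrXV:989583-989682. *PHO5* encodes the repressible acid phosphatase, a textbook case of a promoter covered by positioned nucleosomes under repression, and was added after its values had been seen. Its closed region is at chrII:431051-431201 on the minus strand.
*RPS29B* from −250 to −100: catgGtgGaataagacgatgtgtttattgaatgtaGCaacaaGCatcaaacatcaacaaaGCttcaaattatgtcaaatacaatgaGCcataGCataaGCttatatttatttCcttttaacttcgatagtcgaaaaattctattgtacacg
*RPS29B* from −700 to −601: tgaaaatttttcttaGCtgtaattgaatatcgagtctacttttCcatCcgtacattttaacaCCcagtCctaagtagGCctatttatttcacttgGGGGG
*PUT4* from −250 to −100: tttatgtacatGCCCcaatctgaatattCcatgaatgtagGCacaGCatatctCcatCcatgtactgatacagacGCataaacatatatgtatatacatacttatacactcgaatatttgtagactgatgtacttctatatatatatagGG
*PUT4* from −900 to −801: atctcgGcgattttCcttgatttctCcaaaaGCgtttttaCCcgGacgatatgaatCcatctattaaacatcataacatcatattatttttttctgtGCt
*PHO5* from −250 to −100: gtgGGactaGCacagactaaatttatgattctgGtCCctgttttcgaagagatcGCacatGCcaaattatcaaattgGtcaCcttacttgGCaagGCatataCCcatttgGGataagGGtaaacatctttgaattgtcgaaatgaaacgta

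In the closed region of *RPS29B*, 2 of 108 reads over 4 cytosines were methylated with CCMT and 7 of 211 over 12 cytosines with GCMT. In its window from −700 to −601, 116 of 431 reads over 12 cytosines were methylated with CCMT and 30 of 53 over 4 with GCMT. For *PUT4*, the closed region had 33 of 228 reads methylated with CCMT and 7 of 95 with GCMT, against 49 of 134 and 25 of 59 in the upstream window. *PHO5* had 45 of 575 reads methylated with CCMT and 12 of 125 with GCMT. Thus the DNA before *RPS29B* and before *PUT4* held both a weakly and a strongly methylated stretch.

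Over the closed genes, the median level of the upstream region was 7.34% with CCMT and 7.11% with GCMT, against 18.1% and 19.3% over all measured genes. The downstream region had medians of 11.4% with CCMT and 11.5% with GCMT, against 8.01% and 7.83% over all measured genes. These values chose the genes and are given as a description. Of the 332 closed genes, 231 had an upstream region under 10% in both libraries, and 16 had one of 15% or more in both. The downstream region reached 20% in both libraries in 52 closed genes, of 75 such genes among all those measured. The closed genes therefore included genes with a quiet upstream region and genes with an open downstream region.

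The margin of a gene is the smaller of its differences, downstream minus upstream, in the 2 libraries. Its median over the closed genes was 2.58 percentage points, with 47 genes at 10 points or more and 91 under 1 point. Just inside the threshold were *RGD1*, a gene of a GTPase-activating protein (upstream 10.8% and downstream 10.9% with GCMT), *MPS1*, the spindle checkpoint kinase (10.58% and 10.62% with CCMT), and *RSB1* (6.42% and 6.46% with CCMT). Just outside were *ALD2*, an aldehyde dehydrogenase (8.28% and 8.27% with CCMT), *TRZ1*, the tRNase Z (7.757% and 7.75% with CCMT), and *STE2*, the alpha-factor receptor (6.31% and 6.29% with CCMT). No replicate was available to give an error to differences as small as these. The upstream regions of the closed genes were sequenced about as deeply as those of all measured genes, with a median of 281 against 280 reads for CCMT and 135 against 143 for GCMT.

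**Figure D1:**
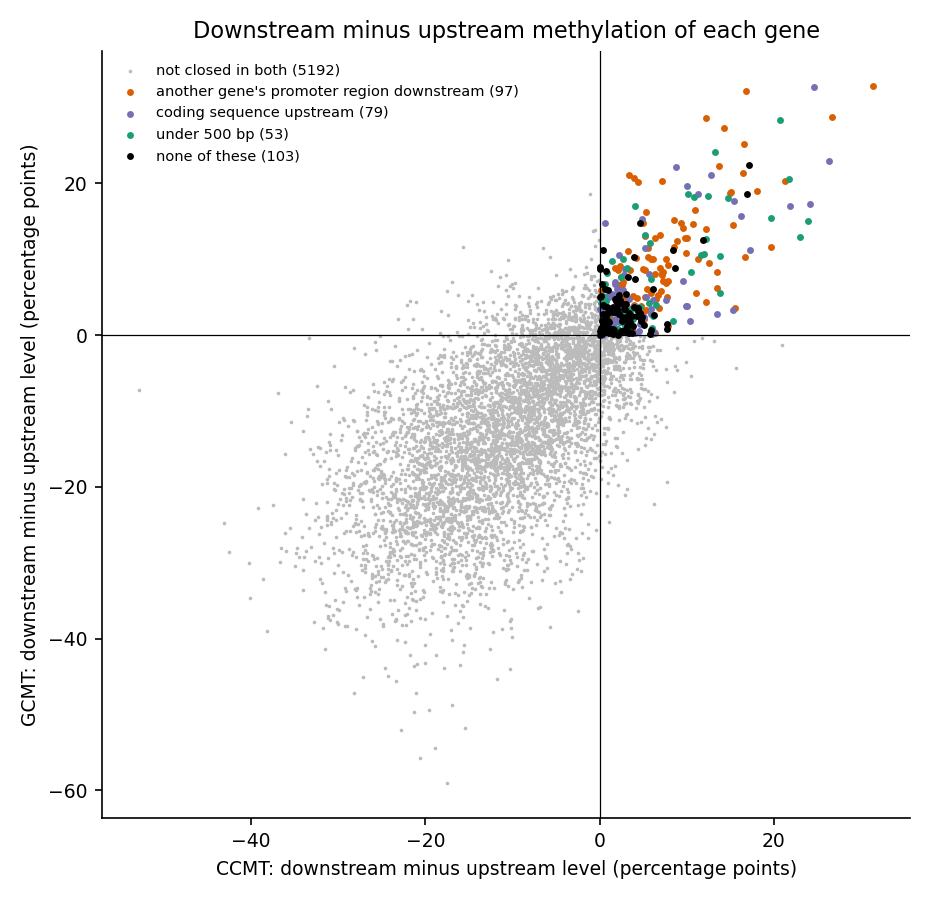
Downstream minus upstream methylation level of each measured gene in percentage points, with CCMT on the x axis and GCMT on the y axis. The 332 closed genes fill the upper right and are coloured by the features described in the text; the black points (103 genes with none of these features) lie mostly near the threshold, and the largest margin is that of API2, which has another gene's promoter region downstream.

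The closed genes were then sorted by what lies around the start codon, each gene being placed in the first class that it met. In 97 genes the downstream region overlapped the upstream region of another gene (29.2%, against 5.81% of all measured genes). In 80 of these 97 that other gene was itself more methylated upstream than downstream in both libraries. The same was so in 190 of the 321 measured genes with such an overlap. Because the regions overlap, the count of 80 partly reuses cytosines that selected the closed genes and is a description only. In 79 further genes (23.8%, against 14.99% of all measured genes) the upstream region overlapped another coding sequence. In 53 others (16.0%, against 9.09%) the coding sequence was shorter than 500 bp, so that the downstream region ran past the stop codon. Counted over all classes, 179 of the 332 closed genes had so short a coding sequence (53.9%, against 16.2% of all measured genes). The remaining 103 genes (31.0%, against 70.1% of all measured genes) had none of these features and are called the long, free genes below. A product with no known function was annotated for 127 closed genes (38.2%, interval 33.0 to 43.7%), against 9.14% of all measured genes. Of these 127, 65 were in the first class and 5 among the long, free genes.

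The genes with the largest margins are given for those with at least 5 cytosines per region and library. Most were small genes with a close neighbour. *API2* (YDR525W, 330 bp), a small gene of unclear function, had levels of 6.84% upstream and 38.2% downstream with CCMT, and 7.29% and 40.2% with GCMT. Its downstream region holds the upstream region of *SNA2* and of YDR524C-B, and its own upstream region lies in the coding sequence of YDR524C-B. YKL096C-B had 8.86% upstream and 35.5% downstream with CCMT, and 11.3% and 40.0% with GCMT. It starts 30 bp from *CWP2*, the gene of a cell wall mannoprotein on the other strand, whose coding sequence overlaps its upstream region and whose upstream region lies within its downstream region. The high level was not limited to the promoter regions of these neighbours. The window from 300 to 399 bp of *API2* (41.9% and 45.1%) lay between genes in no other gene's upstream region, and that of YKL096C-B (34.0% and 51.5%) in another coding sequence. The windows beside them touched the upstream region of *SNA2* (400 to 499 bp of *API2*) and of *CWP2* (200 to 299 bp of YKL096C-B). Whether these neighbours account for the levels was not tested.

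YHR007C-A had its upstream region in *SOD2*, the mitochondrial superoxide dismutase gene, with 8.82% and 5.16% upstream (CCMT and GCMT) and 33.5% and 37.8% downstream. The upstream region of YOR029W lay in *CIN5*, a transcription factor gene, with 7.02% and 10.7% upstream and 33.3% and 33.6% downstream. YHR173C faced *ENO2*, an enolase gene, with 7.73% and 14.2% upstream and 31.9% and 31.4% downstream. *ICS3* (25.9% and 32.5% downstream), YGR035W-A (27.2% and 27.1%) and *FYV12* (29.9% and 37.4%) each held another gene's upstream region downstream of their start codon. *FYV12* lay across from *RPS30B*, a ribosomal protein gene, and *SER1*, a gene of serine synthesis.

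Of these 10 genes with the largest margins, *PUT4* and *MPT5* were long, free genes. With fewer than 5 cytosines in a region, YDR274C and YMR082C, chosen after their values were seen, had margins of 20.7 and 20.6 points, and both have coding sequences shorter than 500 bp. *MPT5*, the gene of an mRNA-binding protein of the Puf family, had 11.5% and 8.47% upstream (CCMT and GCMT) and 28.4% and 27.0% downstream. Its first coding exon is very short and an intron follows, so the downstream region lies in the intron, and its windows from 200 to 399 bp reached 33.1% and 39.1% with CCMT and 29.8% and 46.4% with GCMT. *PUT4* had 14.7% and 8.13% upstream and 31.8% and 30.6% downstream, and all 4 windows from 100 to 499 bp of its coding sequence were at 24.0% or more in both libraries. A window of 100 bp is called open at a mean of 20% or more in both libraries over at least 3 cytosines in each. Within the gene, *MPT5* thus had open windows only from 200 to 399 bp, whereas at *PUT4* they ran on without a break to the window from 600 to 699 bp (34.9% and 27.0%).

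The upstream region of many closed genes was part of a neighbouring gene. The upstream region overlapped the coding sequence of another gene in 140 of 332 closed genes (42.2%, interval 36.8 to 47.7%), against 18.1% of all measured genes. The neighbour lay on the same strand in 65 and on the opposite strand in 76, with 1 gene overlapped on both. It covered the whole upstream region in 41 closed genes, against 116 of all measured genes. With an upstream region from −200 to −50 bp in place of −250 to −100, the overlap was 24.7% of the closed genes and 8.65% of all measured genes. The closed genes also started nearer to the next coding sequence upstream, at a median of 314 bp against 441 bp.

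By the distance to the next coding sequence upstream, the share of closed genes was highest where genes were packed. It was 29.3% (46 of 157 genes) below 100 bp and 11.4% (97 of 852) from 100 to 250 bp. It fell to 2.65% (57 of 2152) from 250 to 500 bp and was 7.96% (59 of 741) beyond 1000 bp. Widely spaced genes were thus closed more often than those with a gap of 250 to 500 bp, and the intervals of these shares did not overlap (6.12 to 10.2% against 2.01 to 3.42%). Measured genes within 20 kb of a chromosome end had a median spacing of 1097 bp, against 441 bp over all measured genes. The part of the chromosome ends in this difference was not tested.

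Closed genes were also frequent near chromosome ends. Of the 145 measured genes within 20 kb of a chromosome end, 30 were closed (20.7%, interval 14.4 to 28.2%), against 302 of 5379 elsewhere (5.61%). The share was 23.6% within 10 kb, 18.9% from 10 to 20 kb, 11.6% from 20 to 30 kb and 10.96% from 30 to 50 kb, and 5.08% from 50 to 100 kb. With at least 10 cytosines per region and library, the closed genes within 20 kb of an end fell from 9.04% to 4.13% of closed genes (5 of 121, interval 1.36 to 9.38%), which holds the 2.06% of all genes measured in this way. The ends were measured less completely, since 91 of their 236 genes had too few listed cytosines. Among the chromosomes the share ran from 2.97% on chromosome XI (9 of 303 genes) to 9.88% on chromosome I (8 of 81). Most closed genes stood alone, but 21 pairs and 2 runs of 3 neighbouring genes were closed, among them *MAL12* with *PAU12*, and YOL162W, *PAU20* and YOL160W.

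**Figure D2:**
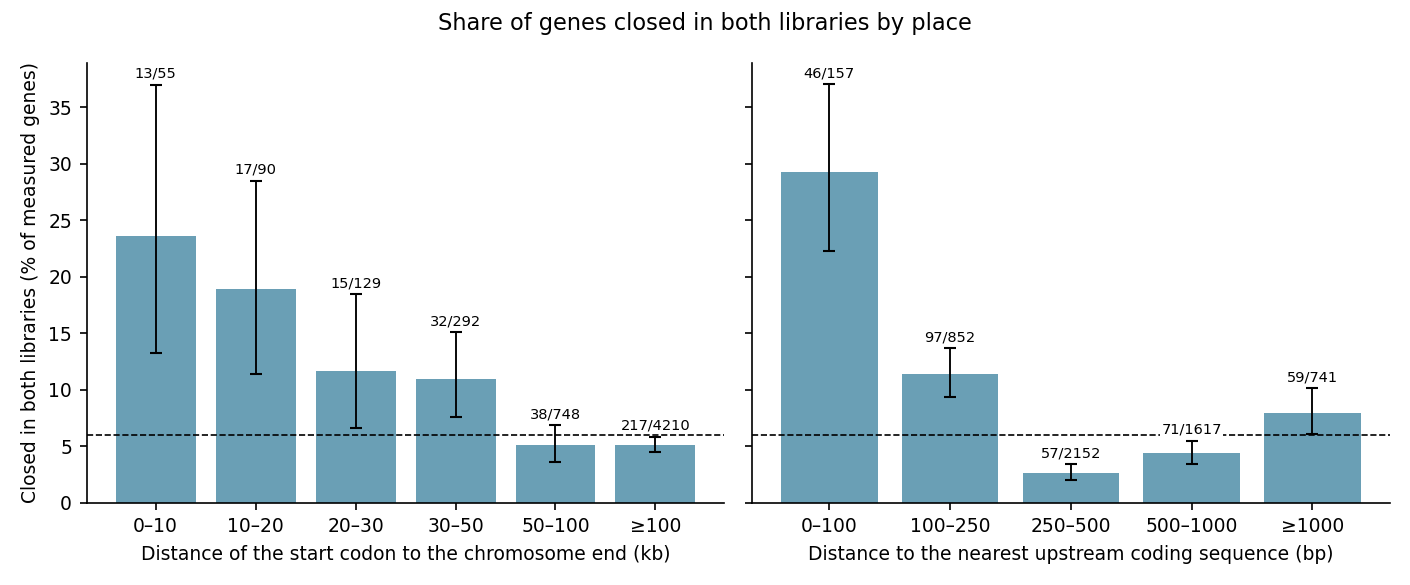
Share of measured genes that were closed in both libraries (y axis, %), by the distance of the start codon to the nearer chromosome end (left, kb) and to the nearest coding sequence upstream (right, bp). Bars give the share with its exact 95% binomial interval and the counts above, and the dashed line marks the 6.01% of all measured genes; the share falls from 23.6% within 10 kb of an end to 5.15% beyond 100 kb, and from 29.3% below 100 bp of spacing to 2.65% at 250 to 500 bp.

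Among gene families, the seripauperins stood out. These are closely related genes of small cell wall proteins, many of them near telomeres, and 8 of the 16 that were measured were closed (50%, interval 24.6 to 75.4%). Only 2 of the 16 were more methylated upstream in both libraries. Their related sequences may share reads, and how reads with several matches were handled was not stated. *PAU12* had 5.28% and 4.0% upstream (CCMT and GCMT) and 8.44% and 12.9% downstream, *PAU20* 4.08% and 11.9% upstream and 6.13% and 16.2% downstream, and *PAU24* 6.47% and 2.47% upstream and 7.86% and 12.3% downstream. The CCMT downstream levels of these genes lay below the 11.4% median of the closed genes, and the GCMT downstream levels above the 11.5% median. Over all measured subtelomeric families, 13 of 73 genes were closed (17.8%), which include these 8, the isomaltase gene *IMA2*, the enolase-related gene *ERR3*, the maltase gene *MAL12*, AAD15 and the flocculin gene *FLO11*. *IMA2* had 4.46% and 1.39% upstream and 8.88% and 5.0% downstream, and *ERR3* 5.20% and 0 upstream and 8.42% and 7.67% downstream, the 0 being over only 4 GCMT cytosines.

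Genes of nitrogen use were closed in 5 of 30 measured cases (16.7%, interval 5.64 to 34.7%), an interval that holds the 6.01% of all measured genes. Besides *PUT4* these were *UGA1*, the GABA transaminase gene, *GDH2*, the NAD-dependent glutamate dehydrogenase gene, *DAL4*, the allantoin permease gene, and *DAL82*, a regulator of allantoin genes. *UGA1* had 11.9% and 9.58% upstream and 16.6% and 24.4% downstream, and *GDH2* 9.25% and 5.59% upstream and 13.3% and 13.0% downstream. All but *DAL82* had an open window further upstream, at 26.7% and 40.4% from −400 to −301 bp of *GDH2* and at 22.5% and 35.8% in the same window of *DAL4*. *DAL82* was the only one of the 5 whose upstream region lay in a neighbouring coding sequence, that of *ATP11*.

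In the mating list, 5 of 43 measured genes were closed (11.6%, interval 3.88 to 25.1%), which again holds the 6.01% of all measured genes. *HO*, the gene of the mating type switching endonuclease, had 11.2% and 4.68% upstream (CCMT over only 4 cytosines) and 13.9% and 8.81% downstream. *AGA2*, the binding subunit of a-agglutinin, had 3.82% and 5.68% upstream and 6.87% and 7.93% downstream, and none of its windows was open in both libraries. The pheromone-regulated *PRM9* had 7.75% and 2.77% upstream and 9.79% and 6.18% downstream. *MFA2*, the gene of the a-factor pheromone, and *KAR5*, a gene of nuclear fusion, were closed too. *AGA2* and *MFA2* are known as genes of the a mating type, as is *STE2*, just outside the threshold.

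Of 75 measured genes of meiosis and sporulation, 4 were closed (5.33%), a share near the 6.01% of all measured genes. *SPO74*, a spindle pole body gene of meiosis, had 5.60% and 10.2% upstream and 9.08% and 11.9% downstream. *MER1*, a meiosis-specific splicing factor gene, had 8.88% and 5.02% upstream and 9.59% and 7.29% downstream. *GMC2*, a gene of the meiotic synaptonemal complex, had 4.03% and 8.17% upstream and 11.7% and 12.8% downstream. The recombination gene *REC104* was the fourth. Of the 75 genes, 48 were more methylated upstream in both libraries, against 4404 of the 5524 measured genes, and their upstream medians were 13.5% and 13.7%, against 18.1% and 19.3%.

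No gene was closed among the 45 measured genes of DNA replication, 35 of the proteasome, 11 of the histones, 27 of heat shock, 14 of hexose transport or 79 of the mitochondrial ribosome. A count of 0 in these lists allows shares of up to 7.87%, 10%, 28.5%, 12.8%, 23.2% and 4.56%, the upper bounds of the exact intervals. Of 20 measured glycolytic genes, *PFK1*, the phosphofructokinase alpha subunit gene (6.08% and 7.78% upstream, 8.16% and 7.85% downstream), and *PDC6*, a minor pyruvate decarboxylase gene (6.98% and 7.96%, 7.24% and 8.09%), were closed. The 91 genes of Ty transposons all had too few listed cytosines.

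Of 132 measured genes of cytosolic ribosomal proteins, 6 were closed (4.55%, interval 1.69 to 9.63%), all of the small subunit, among them *RPS22B*, *RPS26B*, *RPS29A* and *RPS29B*. *RPS29A* and *RPS29B* are duplicate copies. The 132 genes as a group had open promoters, with medians of 28.8% and 31.3% upstream (CCMT and GCMT). The upstream region of *RPS29B* was at 1.83% and 3.12% and that of *RPS29A* at 5.94% and 9.37%. *RPS26B* had 6.77% and 5.08% and *RPS22B* 6.18% and 5.31%. Thus these upstream regions lay near or below the downstream medians of all measured genes, while 119 of the 132 genes were more methylated upstream in both libraries.

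All 6 had an open window further upstream. *RPS29A* was open from −800 to −601 bp (22.2% and 38.7%, then 27.0% and 20.1%) and *RPS29B* from −700 to −501 bp (27.2% and 56.5%, then 29.8% and 20.8%). Both open windows of *RPS29B* touched the upstream region of *TSR1*, another gene. *RPS26B* was open from −800 to −501 bp, at 25.4% to 25.7% with CCMT and 23.4% to 40.5% with GCMT, and *RPS22B* from −800 to −701 bp (25.6% and 23.6%). The open windows of both *RPS29* copies thus lay between −800 and −501 bp, and neither copy had an open window from −500 bp to the start codon.

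**Figure D3:**
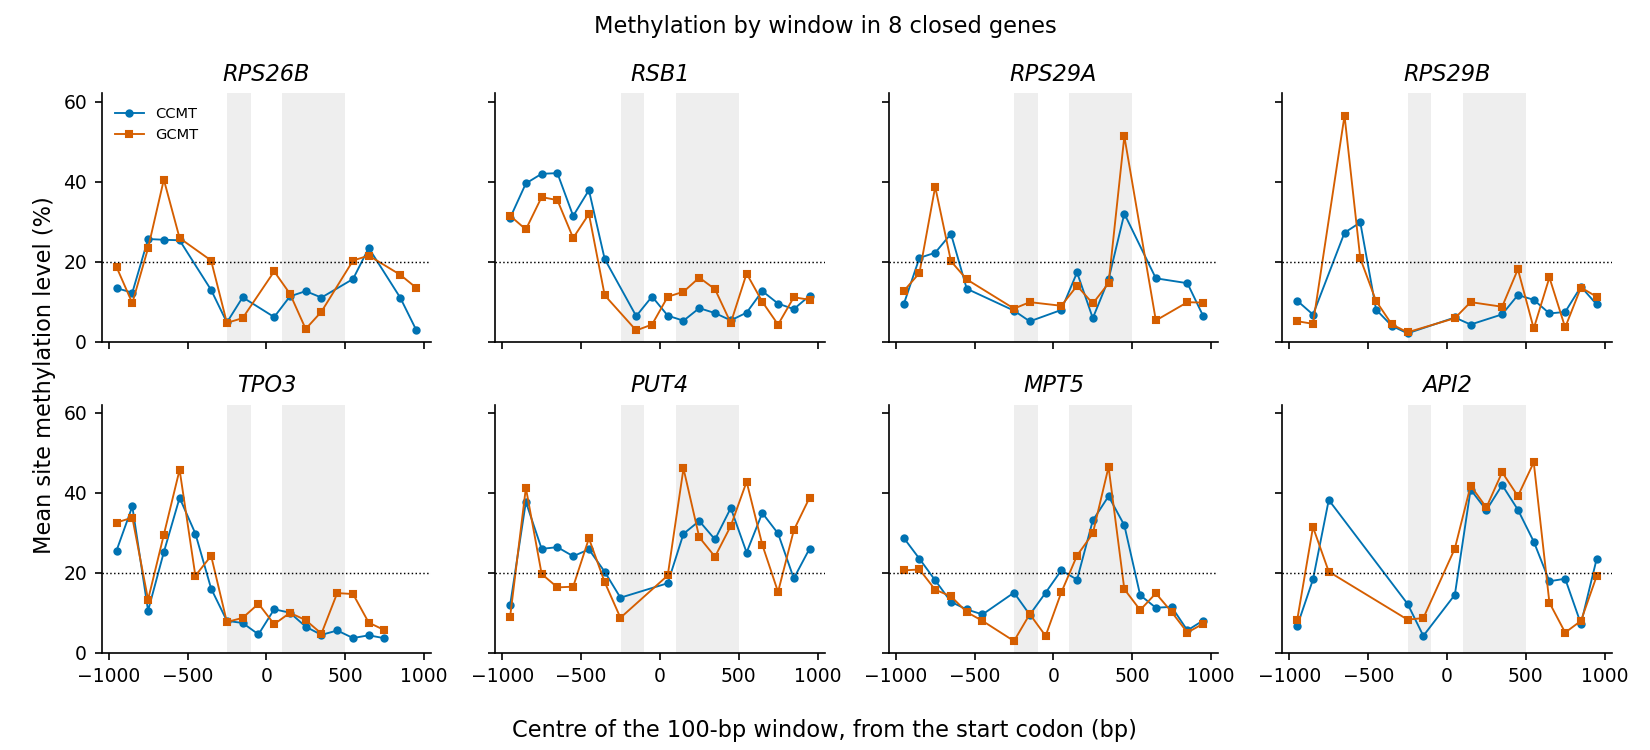
Mean methylation level (y axis, %) in 100-bp windows by the distance of the window's centre from the start codon (x axis, bp) for 8 closed genes, with CCMT as blue circles and GCMT as orange squares, windows under 3 cytosines left out, the 2 regions of the selection shaded and the 20% limit dotted. The ribosomal protein genes, RSB1 and TPO3 are high far upstream and low near the start codon, and MPT5, API2 and PUT4 are high in the downstream region, as RPS29A is in its last window; MPT5, API2 and PUT4 also have open windows from −1000 to −701 bp.

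Across the closed genes, windows from −1000 to −301 bp were open in 94 of 330 genes that could be evaluated (28.5%, interval 23.7 to 33.7%), and the same held for 32.0% of all measured genes. A share this near to that of all genes is no mark of the closed genes. Among the long, free genes, however, 54 of 103 were open there (52.4%, interval 42.3 to 62.4%), against 34.9% of the long, free genes that were not closed (1315 of 3764). The former had the longer spacing upstream, with a median of 664 bp against 504 bp. With spacing of 250 to 500 bp, 27.3% of the closed long, free genes (9 of 33, interval 13.3 to 45.5%) and 12.8% of the others were open. From 500 to 1000 bp these shares were 70.7% (29 of 41, interval 54.5 to 83.9%) and 54.9%, and beyond 1000 bp 55.2% (16 of 29, interval 35.7 to 73.5%) and 59.9%. The closed long, free genes were thus open more often in the first and second of these ranges and not in the widest, and the intervals are broad. Over all classes the shares of closed and other genes were 16.1% and 13.2%, 54.9% and 56.0%, and 42.4% and 58.9% in these ranges. The part of spacing in the result was not tested.

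High upstream windows were found at *HHY1*, *TPO3*, *ERG3* and *PUT4*. *TPO3*, a polyamine transporter gene, had 38.7% and 45.7% from −600 to −501 bp, with its upstream region at 7.30% and 8.72%. *ERG3*, the C-5 sterol desaturase gene, had 38.6% and 44.9% from −600 to −501 bp, in DNA that is also the upstream region of *SPT8*, and 30.3% and 35.4% from −400 to −301 bp. For *PUT4* the window from −900 to −801 bp (37.7% and 41.2%) lay in the upstream region of the divergent *CIN1*, a gene of tubulin folding. *HHY1* (41.0% and 44.8% from −500 to −401 bp) was open in the upstream region of *PRB1*, the vacuolar protease B gene. Thus some of these windows lay next to a divergent neighbour.

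*RSB1*, annotated as a lipid translocase gene, was open in all 6 windows from −1000 to −401 bp, at 30.9% to 42.1% with CCMT and 25.9% to 36.1% with GCMT, with no other gene's upstream region in its highest window. *SAP155*, the gene of a Sit4 phosphatase partner, had 32.2% and 42.3% from −500 to −401 bp and 38.3% and 35.4% from −400 to −301 bp. YDR157W, *MTC7* and YAR066W were also among the 10 highest, at 36.7% and 51.4%, 37.6% and 44.5%, and 35.1% and 40.4%, all from −800 to −701 bp. At *MTC7* and YAR066W that window lay in another coding sequence. In all, the 94 genes had 166 open upstream windows, of which 148 lay between genes and 18 in another coding sequence, 55 touched the upstream region of another gene and 2 a tRNA gene.

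Around the start codon and beyond the downstream region, the closed genes were open more often than all measured genes. From −99 to 99 bp a window was open in 54 of 332 closed genes (16.3%, interval 12.5 to 20.7%), against 5.61% of all measured genes. From 501 to 999 bp this was so in 66 closed genes (19.9%, interval 15.7 to 24.6%), against 7.64%. Of the 103 open windows from 501 to 999 bp, 86 lay between genes and 8 in the gene's own coding sequence, so most were past the end of a short gene. These windows adjoin the regions used to select the genes. The long, free genes were at 2.91% near the start codon and 5.83% from 501 to 999 bp, against 3.10% and 4.40% of the long, free genes that were not closed. No open window was found from −1000 to −301 bp or from −99 to 999 bp in 124 closed genes (37.3%), against 58.5% of all measured genes. Here a window with under 3 cytosines in either library counted as not open. These shares include the downstream region, where the selection favoured high levels. A window there was open in 30.4% of closed genes, against 3.31% of all measured genes. The lower share of closed genes without an open window thus follows in part from the selection. Among the 124 were *AGA2*, *HO*, *PHO5*, *FLO11*, *SPO74* and *REC104*.

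**Figure D4:**
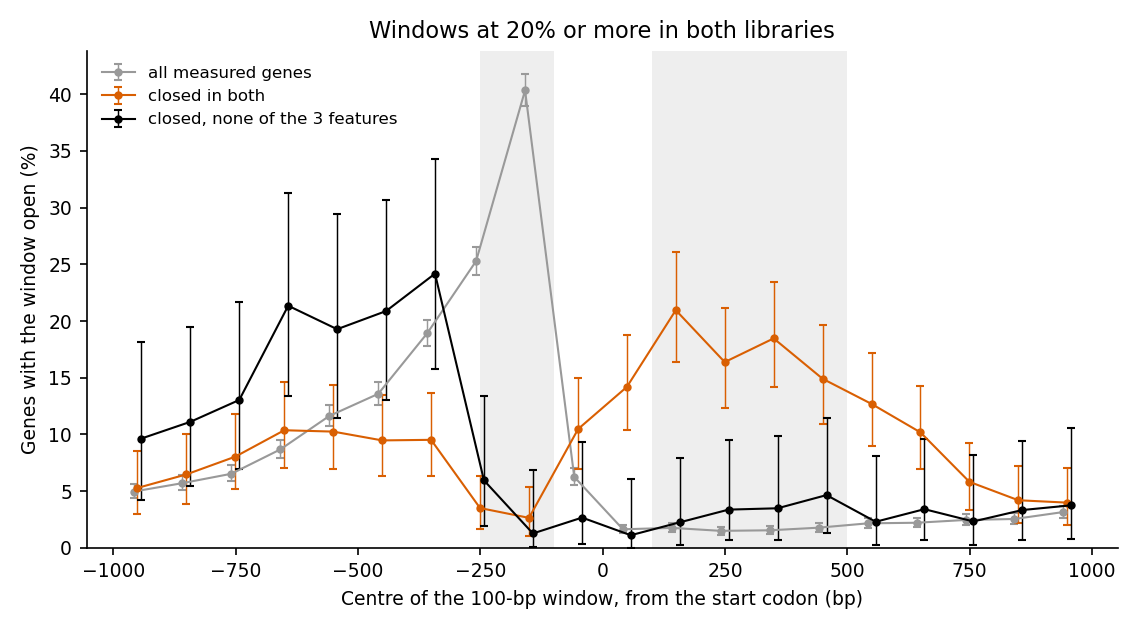
Share of genes whose 100-bp window was open (y axis, %), by the centre of the window from the start codon (x axis, bp), for all measured genes (grey), the closed genes (orange) and the 103 long, free closed genes (black), with exact 95% binomial intervals and the 2 regions of the selection shaded. All measured genes peak at 40.3% from −200 to −101 bp, the long, free closed genes reach 24.2% from −400 to −301 bp, and the closed genes as a whole are at 14.2% from 0 to 99 bp and 12.7% from 501 to 599 bp.

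The averaged profiles show where along the gene these levels lie. Along the long, free genes, the 21-bp running mean was lowest at −180 bp in the CCMT library (5.71%) and at −160 bp in the GCMT library (5.14%), close to the maximum of the genes that were not closed (22.3% at −150 bp and 23.8% at −140 bp). Upstream of the selected region the long, free genes reached 16.8% at −390 bp for CCMT and 20.5% at −330 bp for GCMT.

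**Figure D5:**
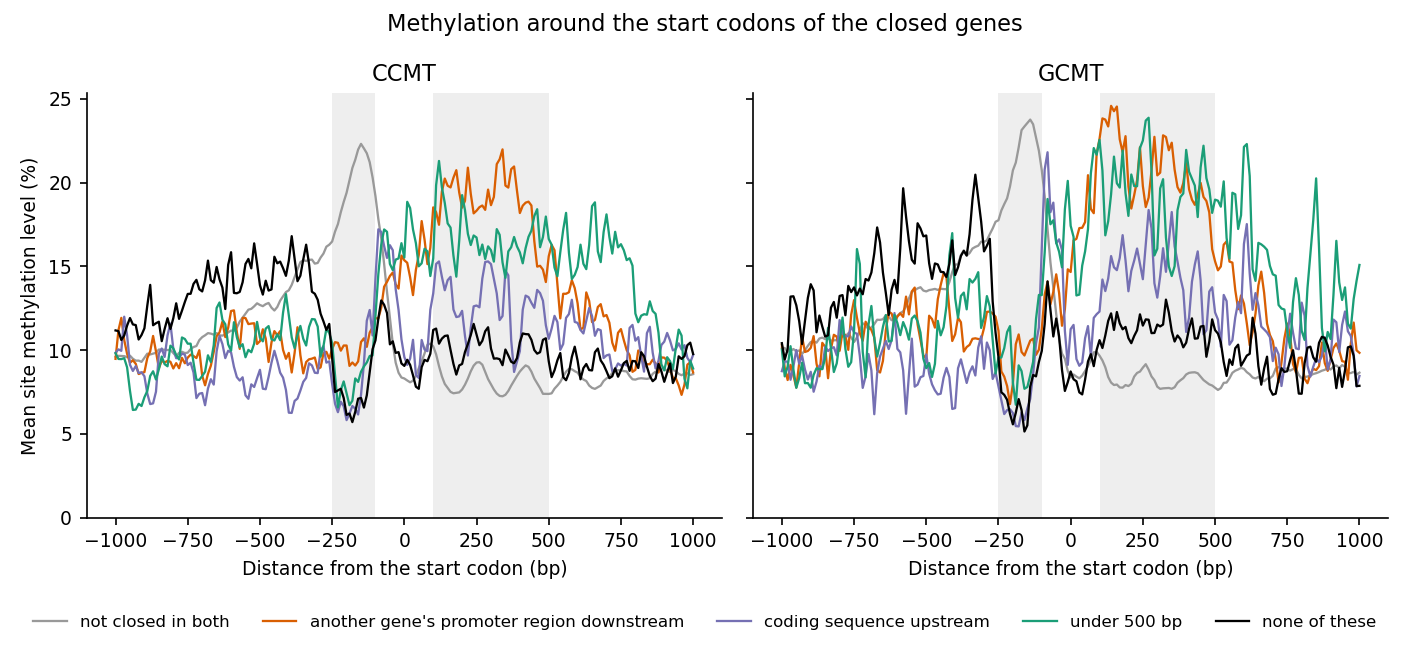
Mean methylation level of cytosines (y axis, %, 21-bp running mean) from −1000 to 1000 bp of the start codon (x axis), with CCMT on the left and GCMT on the right, for the 4 classes of closed genes and for the genes that were not closed, the 2 regions of the selection being shaded. The closed classes dip where the grey line of the other genes peaks, inside the region that the selection required to be the lower one. The black line (none of the 3 features) is raised from about −700 to −300 bp. The orange line (another gene's promoter region downstream) is raised from 100 to 500 bp, the region required to be the higher one.

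Among closed genes with at least 5 cytosines per region and library, the lowest upstream regions, by the higher of the libraries, were those of *DAD4*, YOL166W-A, *CHL1*, *ATG32* and YIL165C. *DAD4*, a subunit gene of the kinetochore DASH complex, had 3 of 138 reads methylated with CCMT and 1 of 74 with GCMT. Its upstream region (chrIV:1108598-1108748) overlaps the coding sequence of *ASP1* and holds 14 target positions, in capitals as above.
*DAD4* from −250 to −100: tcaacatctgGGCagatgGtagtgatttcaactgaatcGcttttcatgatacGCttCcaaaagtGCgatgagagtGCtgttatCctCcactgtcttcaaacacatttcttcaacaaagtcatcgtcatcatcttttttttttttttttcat

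YOL166W-A, which starts 584 bp from the end of chromosome XV, had 1.81% and 3.44% upstream, and the DNA helicase gene *CHL1* 4.27% and 2.81%. *ATG32*, the mitophagy receptor gene, had 4.33% and 3.27%, and YIL165C 4.10% and 4.39%. *CHL1* and *ATG32* were long, free genes, and both opened further upstream, at 31.3% and 23.9% from −400 to −301 bp and at 22.6% and 28.2% from −500 to −401 bp.

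The letters of the upstream regions were searched on both strands for 5 short motifs. The Reb1 core TTACCC was in 5.42% of the closed regions (interval 3.25 to 8.43%), against 12.9% of the regions of all measured genes. The Abf1 consensus was in 3 of the 332 closed regions (0.904%), against 11.3%. A run of 7 A or 7 T was in 21.7%, against 34.8%. The TATAAA letters were in 28.6% and 27.4%, and GGCGGC, the core of the Ume6 site, in 3.92% and 3.19%. Among the long, free genes the Reb1 core was in 8.74% of closed and 13.6% of other regions and the Abf1 consensus in 0.971% and 12.1%. Thus the Abf1 letters were rarer in the closed regions also where no other coding sequence was present.

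In the 166 open windows further upstream of the closed genes, these motifs were found at other rates. The Reb1 core was in 17.5% of the open windows, against 2.84% of the 1793 other windows of the same genes. The Abf1 consensus was in 9.04% against 0.892%, and the A or T run in 22.9% against 7.92%. The TATAAA letters were in 12.0% and 8.37%. Of the 166 open windows 148 lay between genes, whereas the other windows were not sorted by place. The part of place, between genes or in a coding sequence, in these differences was not tested. Open windows of genes that were not closed were not searched, so the rates are no mark of the closed genes. A match is a description of the letters and shows neither binding nor a cause, and windows of one gene share their sequence context.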

How the data were processed

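Genomic DNA of 2 libraries, 1 per enzyme, was analysed. The authors mapped bisulfite reads to sacCer3 with BMap and in-house pipelines. Read filters, duplicates and versions were not given in the sources used here. The deposited count is the coverage of each cytosine, without normalization, and the deposited fraction is its methylation level from 0 to 1. All listed cytosines had at least 5 reads. File positions count from 0 and 1 was added, after which all 900211 CCMT and 839016 GCMT nuclear cytosines stood in CC or GC of R64. Reads may include copies of the same molecule, so intervals cover counting error only. Formaldehyde and detergent concentrations are left out because the labels and the methods give different ones.

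Levels are means over cytosines. Start codons, coding sequences and products came from the RefSeq R64 annotation. Distances to chromosome ends, overlaps, windows of 100 bp (upstream those from −1000 to −301 bp, clear of the upstream region) and motifs were computed in Python 3.11.15 with numpy 2.4.6, pandas 2.3.3 and scipy 1.17.1. The members and lists were chosen with earlier results of these data known. Genes named were the 10 with the largest margin (at least 5 cytosines per region and library), the 10 with the highest upstream window by the lower library, the 5 lowest upstream regions (at least 5 cytosines), the 3 on either side of the threshold and the up to 3 of largest margin per list; other names were chosen after their values were seen. The selection was run on simulated data in which the regions of every gene differed by far more than the median margin of 2.58 percentage points. That run therefore does not show how well small margins are called. With 1 library per enzyme no test was made, and genes are not replicates. Alternatives covered coverage, number of cytosines, pooled reads, GCC cytosines, the stop codon, a margin, thinning of CCMT, the regions, the windows and the limits. Some genes that met these rules are not reported here.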

Additional observations from a re-analysis of the deposited data

How the results depend on the processing

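The number of closed genes stayed between 235 and 348 under 8 of 11 alternatives. It was 121 with at least 10 cytosines per region and library, 197 with a difference of at least 2 percentage points and 153 among genes of 500 bp or more of coding sequence. By construction, asking for more cytosines per region, asking for a margin or leaving out genes can only remove closed genes. The 235, without genes whose downstream region holds another gene's upstream region, was such a count. A like number does not mean the same genes: with an upstream region from −200 to −50 bp there were 324 closed genes, of which 186 were among the 332. Of the 332, 137 were closed under each of 6 alternatives. These were coverage of at least 10, at least 5 cytosines, pooled reads, no GCC cytosines, a downstream region cut at the stop codon, and thinned CCMT reads. The alternatives with at least 10 cytosines, a margin of 2 percentage points, another upstream region or fewer genes were left out of this count.

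The share whose upstream region overlapped another coding sequence was 54.5% with at least 10 cytosines (17.8% of all measured genes), 24.7% with the region from −200 to −50 bp (8.65%), 33.6% without genes whose downstream region holds another gene's upstream region (15.9%), 32.7% for genes of 500 bp or more (16.0%) and 12.3% for overlap of the whole region (2.10%). The share near a chromosome end was 4.13% with at least 10 cytosines (2.06%), 13.6% within 30 kb (4.96%) and 3.92% within 10 kb (0.996%). The share open from −1000 to −301 bp was 38.6% for genes of 500 bp or more (32.0%), 38.8% at a limit of 15% (42.2%) and 17.0% at 25% (21.6%). With the region from −200 to −50 bp the windows ran from −1000 to −201 bp, and the share was 41.2% (41.6%). Windows of 150 bp ran from −1000 to −251 bp, with a share of 21.5% (29.9%). Both of these shares thus cover a wider range than the main one. Other causes of these changes were not tested. The alternatives that leave out genes by length or by their downstream region were chosen after seeing the data. No paired analysis was possible because each enzyme had a single library, and for the same reason no replicate could be left out. The GCMT library had 13 reads at the median cytosine and the CCMT library 31, and the lack of replicates leaves the error between libraries unknown.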
